A study of Mus musculus with 6 samples.

Results

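Adenosine outside the cell is made, moved, broken down and sensed by a small set of proteins, and the genes for 8 of them were followed in RNA-seq libraries of regulatory T (Treg) cells. They were taken by symbol from the gene count matrix, which lists 24421 genes: Entpd1, Nt5e, Adora2a, Adora2b, Ada, Adk, Dpp4 and Slc29a1. All 8 symbols had a row, and 7 of them passed the filter on low counts and were tested, the exception being Adora2b.

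The libraries came from CD4+YFP+ cells sorted from the spleens of female C57BL/6 mice aged 8 to 11 weeks, with 3 libraries of Foxp3Cre mice (WT) and 3 of Foxp3Cre miR-142 fl/fl mice (KO), without any treatment after the sort. Both groups carry a Cre-YFP fusion expressed from the Foxp3 gene, so the WT animals share the Cre and the reporter, and in the KO animals the floxed miR-142 gene is removed in cells that have turned Foxp3 on. The KO animals develop a systemic autoimmune disease, and the loss of the microRNA in the sorted cells and the state of the diseased host cannot be told apart in this comparison.

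In the adenosine pathway, CD39 (Entpd1) strips phosphates from ATP and ADP to leave AMP, and CD73 (Nt5e) turns AMP into adenosine, which Treg cells use to restrain other T cells. Adenosine acts on the A2a and A2b receptors (Adora2a, Adora2b), which raise cyclic AMP in the receiving cell. It is taken up through the equilibrative transporter ENT1 (Slc29a1), and is removed by adenosine deaminase (Ada), which makes inosine, or by adenosine kinase (Adk), which makes AMP, while CD26 (Dpp4) is a cell surface peptidase that in humans holds adenosine deaminase at the membrane.

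Because the KO removes a microRNA, the mature strands of miR-142 are shown with the part that pairs with a target. Sequences of the mature strands are from RefSeq (GRCm38.p6), where they lie on the plus strand at chr11:87756903-87756925 (3p) and chr11:87756867-87756887 (5p), and the capitals mark the seed. The 3p strand is printed with the seed at bases 2 to 8 (3p.1) and again with the seed 1 base further on, at bases 3 to 9 (3p.2).
mmu-miR-142a-3p, seed 3p.1: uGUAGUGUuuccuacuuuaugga
mmu-miR-142a-3p, seed 3p.2: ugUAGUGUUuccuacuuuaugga
mmu-miR-142a-5p, seed at bases 2 to 8: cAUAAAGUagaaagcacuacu

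Matches were sought on the transcript strand of the longest annotated 3′ UTR of each gene (GENCODE on GRCm38), as ACACTAC or CACTACA for 3p.1, AACACTA or ACACTAA for 3p.2, and ACTTTAT or CTTTATA for 5p. The 3p.1 and 3p.2 letters overlap, so 1 stretch can match both. Of the 8 genes, 4 held a 3p match and none held a 5p match. Among the 10793 tested genes with an annotated 3′ UTR, 24.2% held a 3p match of either kind (13.5% for 3p.1 and 16.2% for 3p.2) and 24% a 5p match. Each of the 4 matches is shown 5′ to 3′ with 8 bases on either side, the matched letters in capitals.
Nt5e, 3p.2: gttccataAACACTAgttaagga
Adora2a, 3p.1: ctgctaatACACTACtctcccca
Adora2b, 3p.2: gtacacaaAACACTAgaggtaga
Dpp4, 3p.2: tgggacagAACACTAtcagcaga

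The Nt5e match is at chr9:88371226-88371232 on the plus strand, in exon 9, at bases 909 to 915 of a 3′ UTR of 1775 bases. In Adora2a it is at chr10:75334279-75334285, plus strand, in exon 3, at bases 343 to 349 of 848. In Adora2b it is at chr11:62266265-62266271, plus strand, in exon 2, at bases 540 to 546 of 728. The Dpp4 match is at chr2:62331295-62331301 on the minus strand, in exon 26, at bases 1317 to 1323 of 2545. The longest 3′ UTRs of Entpd1 (2573 bases), Adk (631 bases), Ada (481 bases) and Slc29a1 (471 bases) held none of the 6 motifs. A match is a run of letters and was not tested as a binding site here.

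The libraries held between 13883069 and 24042994 counts. Mir142b, the row that overlaps the deleted gene on the other strand, had 101 to 147 counts in the WT and 5 to 7 in the KO libraries, and the counting did not separate the strands, while the row Mir142 was at 0 throughout. The summed level of 9 Treg and CD4 T cell markers in the matrix, Foxp3 among them, was 6237 to 6900 CPM (read counts scaled to a common library size) in WT and 8141 to 9151 CPM in KO. Most of that difference was in Il2ra (mean 756 CPM in WT and 2578 CPM in KO), while Cd4 (1021 and 876 CPM) and Cd3e (679 and 592 CPM) lay lower in each KO library and Foxp3 (566 and 689 CPM) higher. KO replicate 1 stood apart in the markers of other cell types. Its summed neutrophil markers reached 825 CPM against 7.72 and 40.5 CPM in the other KO libraries and at most 1.29 CPM in WT. Its monocyte and macrophage markers reached 2767 CPM against 77.4 and 19.0 CPM in the other KO libraries and 7.64 to 11.6 CPM in WT. Its B cell markers were at 290 CPM, against 9.08 and 13.1 CPM in the other KO libraries and 30.2 to 41.3 CPM in WT. CD8 and NK cell markers were 20.3 to 24.3 CPM in WT and 44.6 to 78.4 CPM in KO, mostly through Eomes (mean 5.79 and 37.0 CPM). Cd8a was at 0.185, 0.369 and 0.553 CPM in the WT libraries and at 19.0, 1.97 and 0.684 CPM in KO replicates 1, 2 and 3. Klrd1 reached 1.67 CPM in KO replicate 1. Mean Cd8b1 was at 12.8 and 13.9 CPM in WT and KO, mean Klrb1c at 3.39 and 0.837 CPM, and Ncr1 was near 0. Erythroid markers were 0.774 to 1.05 CPM in WT and 1.16 to 12 CPM in KO. Results for the adenosine genes are therefore given with and without that library.

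Of the 7 tested genes, 3 were higher in KO (Entpd1, Ada and Dpp4), Adk was lower, and Nt5e, Adora2a and Slc29a1 did not pass the test at a false discovery rate (FDR) of 0.05 over all genes. Those 4 calls are 57.1% of the 7, where 18.8% of the 11658 genes tested were called, 11.6% higher and 7.27% lower. In 6 of the 7 genes the WT and KO libraries did not overlap, with 3 genes above and 3 below, where 41% of all tested genes did not overlap, 22.2% with KO above and 18.8% with KO below. The median log2 fold change of the 7 genes was 0.05, beside 0.02 over all tested genes. Without KO replicate 1, Entpd1, Ada and Adk were still called and Dpp4 was not. Of the 4 genes with a 3p match, Dpp4 was called higher, Nt5e and Adora2a were not called and Adora2b was not tested. Of the 4 without a match, Entpd1 and Ada were called higher, Adk lower, and Slc29a1 was not called.

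**Figure D1:**
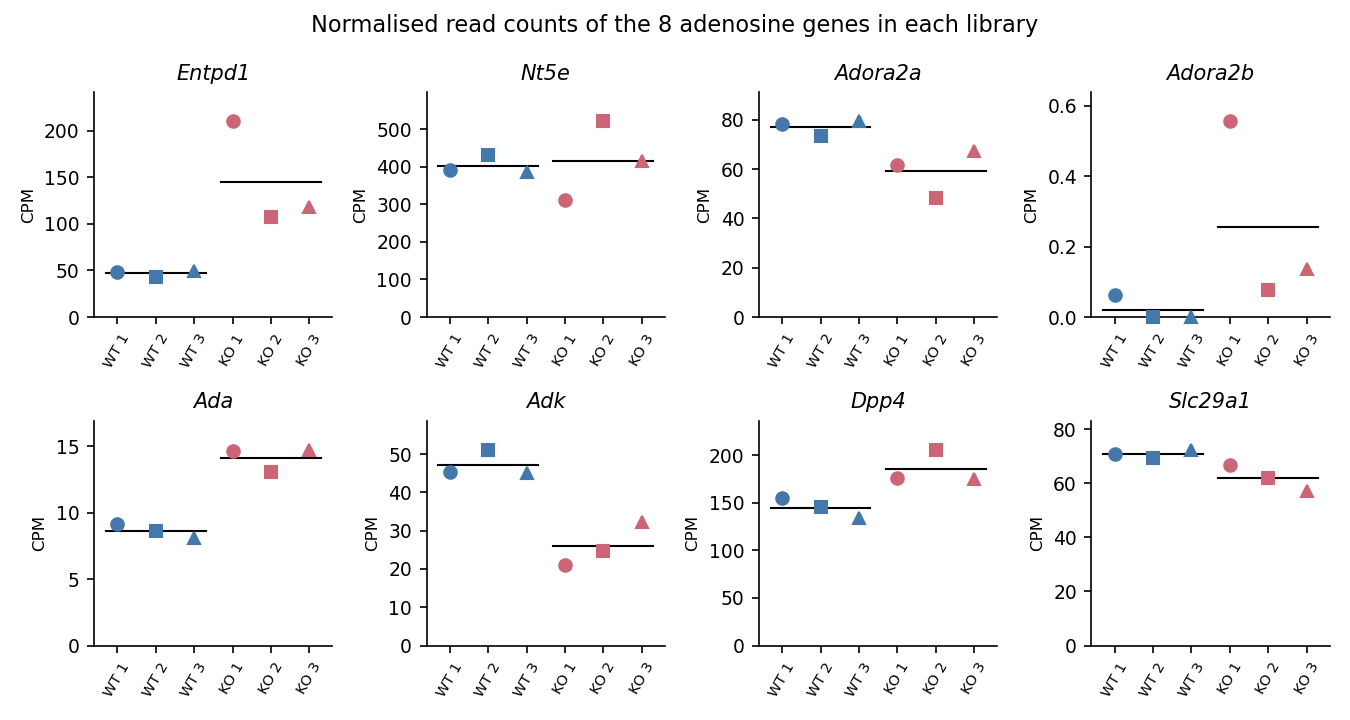
CPM of the 8 adenosine genes (vertical axes, each from 0) in the 3 WT libraries (blue) and the 3 KO libraries (red), 1 point per library, with the mean of each group as a black line. Entpd1 was 42.6 to 48.8 CPM in WT and 107 to 210 CPM in KO, Adk lay lower in each KO library than in any WT library, and the Nt5e points of KO fell on both sides of those of WT.

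The clearest change on the production side was in Entpd1 (chr19:40612366-40741602, plus strand), which rose 3.11-fold. The WT libraries had 48.7, 42.6 and 48.8 CPM (mean 46.7 ± 3.60, SD, n = 3), and the KO libraries had 210, 107 and 118 CPM (145 ± 56.5, SD, n = 3). All KO libraries lay above all WT libraries, and KO replicate 1 lay far above the other KO libraries. The log2 fold change of Entpd1 was 1.63 ± 0.25 (SE), with a 95% confidence interval of 1.04 to 2.23 and an FDR of 0.00656 in edgeR's quasi-likelihood test. Fewer cells of a type and less RNA per cell cannot be told apart in such bulk libraries, for this gene or any other.

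CD39 is also made by macrophages, neutrophils and B cells, and the library with the highest Entpd1 was the library with the most of their markers. All 10 monocyte and macrophage markers and all 8 B cell markers were highest in KO replicate 1, as were 8 of the 9 neutrophil markers in the matrix. The neutrophil genes S100a8, Retnlg and Cxcr2 were at 0 in each WT library, and Cxcr2 also in KO replicates 2 and 3. With KO replicate 1 left out, Entpd1 was 2.38-fold higher in KO (log2 fold change 1.25 ± 0.10, SE, 95% interval 1.01 to 1.49, FDR 0.000328), in libraries whose B cell markers were below those of WT and whose monocyte and macrophage markers (77.4 and 19.0 CPM) and neutrophil markers (7.72 and 40.5 CPM) were above. In these libraries the neutrophil sum was mostly Mpo (6.21 and 32.2 CPM), with S100a8 at 0 and 0.890 CPM. In KO replicate 3 the monocyte and macrophage sum was mostly Vcam1 (11.2 CPM), with C1qa and Adgre1 at 0.274 CPM each. KO replicate 2 had Vcam1 at 35.1, Csf1r at 12.6, C1qa at 6.51 and Adgre1 at 3.03 CPM. The WT means of these genes were 2.03, 0.605, 0.232 and 0.115 CPM. Cd68 went the other way in KO replicate 2 (4.09 CPM, against a WT mean of 5.51 CPM). The part of macrophages, neutrophils and B cells in the level of Entpd1 was not tested in any KO library. Entpd1 was called under each of the 18 alternatives run, with log2 fold changes from 1.25 to 1.82.

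**Figure D2:**
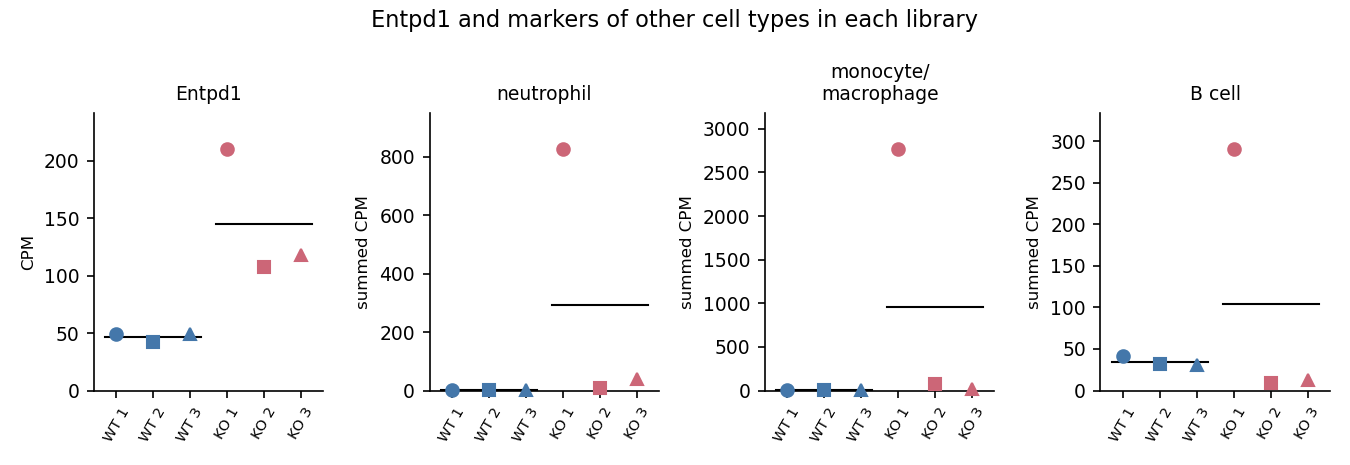
CPM of Entpd1 and summed CPM of the neutrophil, monocyte and macrophage, and B cell markers (vertical axes, each from 0) in each library, WT in blue and KO in red, with group means as black lines. KO replicate 1 is highest in all 4 panels, while KO replicates 2 and 3 have 107 and 118 CPM of Entpd1 with B cell markers at 9.08 and 13.1 CPM. Their monocyte and macrophage markers are at 77.4 and 19.0 CPM and their neutrophil markers at 7.72 and 40.5 CPM.

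Nt5e (chr9:88327197-88372092, plus strand), the gene of the enzyme that follows CD39, was the most abundant of the 8 and showed no detectable change. The WT libraries had 391, 431 and 387 CPM (403 ± 24.2, SD, n = 3), and the KO libraries had 312, 521 and 416 CPM (417 ± 105, SD, n = 3). The groups overlapped, with KO replicate 1 below and KO replicate 2 above all WT libraries. Its log2 fold change was 0.05 ± 0.18 (SE, 95% interval -0.37 to 0.46, FDR 0.873), which leaves room for a change of either sign, and the sign turned under other scalings, as when library size alone was used (-0.03). Without KO replicate 1 the log2 fold change was 0.20 (95% interval -0.09 to 0.49, FDR 0.308).

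The reads of the genes for the enzymes that act in sequence can be compared within a library, where no scaling between libraries enters. The ratio is not corrected for exon length (8.60 kilobases for Nt5e and 5.58 for Entpd1), so only its difference between the groups can be read. This ratio was chosen after the values were seen, and it is given with no test. There were 8.03, 10.1 and 7.93 Nt5e reads for each Entpd1 read in the WT libraries and 1.49, 4.87 and 3.53 in the KO libraries. The lowest ratio was that of KO replicate 1, and the other KO libraries also lay below each WT library.

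Among the receptors, Adora2a (chr10:75316877-75334784, plus strand) was lower in each KO library but did not pass the test. The WT libraries had 78.1, 73.2 and 79.3 CPM (76.9 ± 3.23, SD, n = 3), and the KO libraries had 61.4, 48.3 and 67.4 CPM (59.1 ± 9.77, SD, n = 3). The groups did not overlap, with KO replicate 2 the lowest. The log2 fold change was -0.38 ± 0.13 (SE, 95% interval -0.68 to -0.08, FDR 0.0819), and -0.42 without KO replicate 1 (FDR 0.0789). DESeq2, an alternative count model, called it lower with an FDR of 0.0463.

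Adora2b (chr11:62248984-62266453, plus strand) was at the limit of detection. It had 1, 0 and 0 counts in the WT libraries and 10, 1 and 2 counts in the KO libraries. Only KO replicate 1 rose above the floor of 3 counts, which is 0.123 to 0.227 CPM depending on the library. It did not pass the filter. With no filter it was not called (FDR 0.125). No fold change is given, since all libraries but that with the markers of other cells were at or under the floor, and the part of those cells in its 10 counts was not tested.

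On the side of removal, the genes of the enzymes that compete for adenosine inside the cell moved in opposite directions. Ada (chr2:163726584-163750239, minus strand), for the deaminase, had 9.12, 8.61 and 8.08 CPM in the WT libraries (8.60 ± 0.519, SD, n = 3) and 14.6, 13 and 14.7 CPM in the KO libraries (14.1 ± 0.945, SD, n = 3). The KO libraries lay close together and all above WT, with replicate 1 in their midst. Ada rose 1.64-fold, with a log2 fold change of 0.71 ± 0.14 (SE, 95% interval 0.38 to 1.05, FDR 0.0160). Without KO replicate 1 it was 0.67 (FDR 0.0285). The call was lost when WT replicate 1, 2 or 3 was left out, at FDRs of 0.052, 0.0771 and 0.0774, with log2 fold changes of 0.73, 0.71 and 0.67.

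Adk (chr14:21052574-21448569, plus strand), for the kinase that returns adenosine to AMP, had 45.3, 51.1 and 45.0 CPM in the WT libraries (47.1 ± 3.47, SD, n = 3) and 20.9, 24.7 and 32.2 CPM in the KO libraries (25.9 ± 5.72, SD, n = 3). All KO libraries lay below all WT libraries. Its level in WT was 1.82-fold that in KO (log2 fold change -0.86 ± 0.16, SE, 95% interval -1.25 to -0.48, FDR 0.0139). Without KO replicate 1, the lowest library, it was -0.75 (FDR 0.0144), and without WT replicate 2, the highest, it was -0.80 and no longer passed (FDR 0.0676).

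The reads of the kinase and deaminase genes were also set against each other within each library. The WT libraries held 4.97, 5.94 and 5.57 Adk reads for each Ada read, and the KO libraries held 1.43, 1.90 and 2.19. The ratios did not overlap between the groups, which follows from Adk being lower and Ada higher in each KO library. This ratio too was chosen after the values were seen and was not tested.

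**Figure D3:**
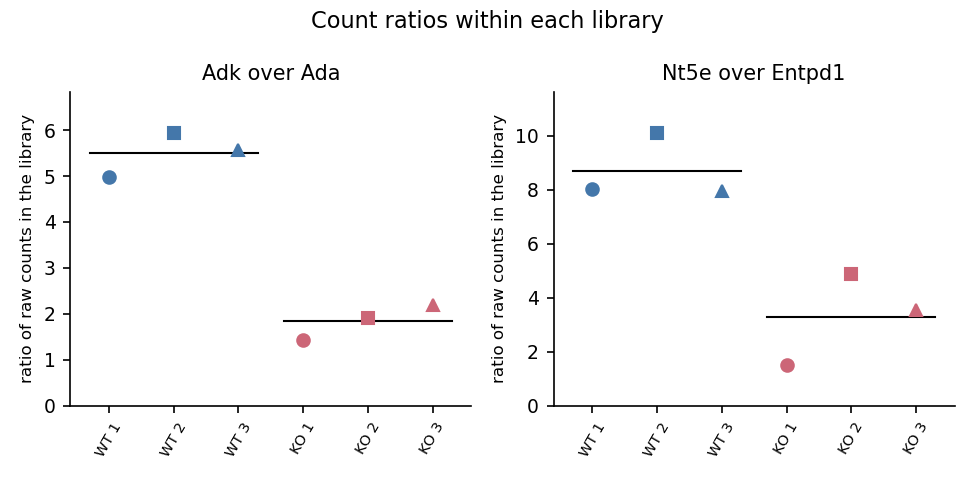
Ratio of raw counts within each library (vertical axes, from 0) for Adk over Ada and for Nt5e over Entpd1, WT in blue, KO in red, with group means as black lines. Each ratio is lower in every KO library than in any WT library, falling to 1.43 to 2.19 for Adk over Ada and to 1.49 to 4.87 for Nt5e over Entpd1. The ratios are not corrected for exon length, and the fall of Adk over Ada follows from the separate changes of Adk and Ada.

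Dpp4 (chr2:62330073-62412231, minus strand), for CD26, had 155, 146 and 134 CPM in the WT libraries (145 ± 10.6, SD, n = 3) and 176, 206 and 175 CPM in the KO libraries (185 ± 17.5, SD, n = 3). The groups did not overlap, with KO replicate 2 the highest. The rise was small, 1.28-fold (log2 fold change 0.35 ± 0.10, SE, 95% interval 0.12 to 0.59), and its FDR of 0.0490 lay next to the threshold. The call was lost in 14 of 18 alternatives. These include each fit without 1 library, with FDRs of 0.0979, 0.157 and 0.176 without WT replicates 1, 2 and 3 and of 0.0551, 0.0649 and 0.0787 without KO replicates 1, 2 and 3. Of the exon bases of Dpp4, 232 are shared with Gm13561 on the other strand, whose reads the counting could not tell apart.

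Slc29a1 (chr17:45585200-45599606, minus strand), for the transporter ENT1, had 70.7, 69.5 and 72.4 CPM in the WT libraries (70.8 ± 1.44, SD, n = 3) and 66.9, 62.0 and 57.1 CPM in the KO libraries (62.0 ± 4.90, SD, n = 3). The KO libraries lay below WT without overlap, by a small difference that did not pass the test. The log2 fold change was -0.19 ± 0.09 (SE, 95% interval -0.40 to 0.02, FDR 0.173). Without KO replicate 1 it was -0.27 (95% interval -0.49 to -0.05, FDR 0.0939), and none of the 18 alternatives called it. It shares 275 exon bases with Gm17080 on the other strand.

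**Figure D4:**
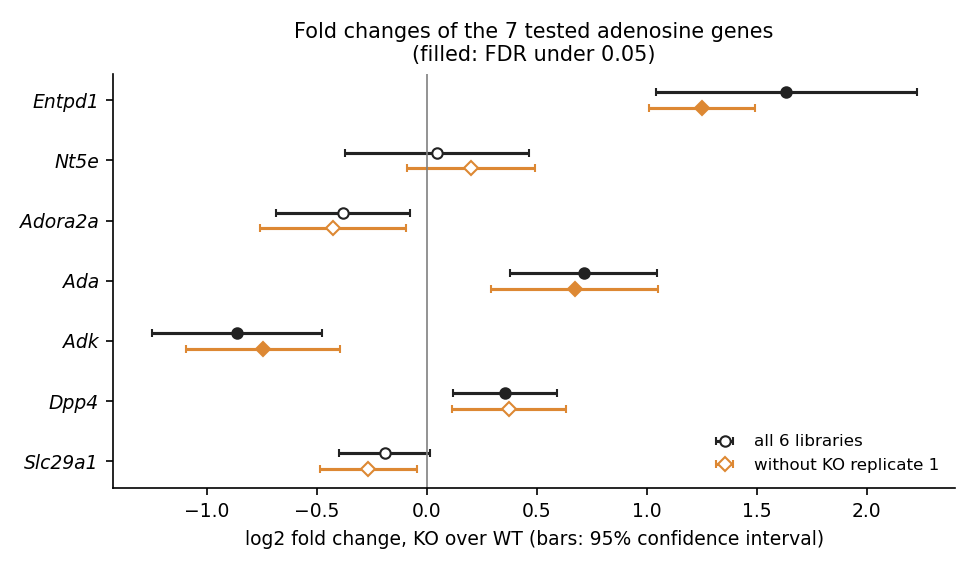
Log2 fold changes of KO over WT (horizontal axis) for the 7 tested adenosine genes, with 95% confidence intervals, from all 6 libraries (black circles) and without KO replicate 1 (orange diamonds), filled where the FDR was under 0.05. Entpd1 lies at 1.63 and at 1.25, Ada and Adk are filled in both fits on opposite sides of 0, and Dpp4 is filled only with all 6 libraries.

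For 6 of the tested genes, an exact two-sided permutation test over the libraries gives p = 0.1, the smallest value that 3 against 3 libraries allow, and for Nt5e it gives p = 1. The calls above come from edgeR, which borrows the spread of other genes.

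Levels were compared between genes as CPM per kilobase of exon. In WT cells Nt5e was highest at 46.9, followed by Adora2a at 25.1 and Dpp4 at 23.0, whose libraries overlapped, and then by Slc29a1 at 17.7, Entpd1 at 8.37, Adk at 5.53 and Ada at 4.30 CPM per kilobase. In KO cells Nt5e remained highest at 48.4, and Dpp4 at 29.4, Entpd1 at 26.0, Adora2a at 19.3 and Slc29a1 at 15.5 CPM per kilobase formed a run in which each overlapped the next. The overlap of Entpd1 with Dpp4 came from KO replicate 1 alone. Without that library Entpd1 was at 19.2 and 21.1 CPM per kilobase (mean 20.1), below Dpp4 at 32.6 and 27.7, overlapping Adora2a at 15.8 and 22.0, and above Slc29a1 at 15.5 and 14.3. Entpd1 thus lay below Slc29a1 in WT and above it in KO replicates 2 and 3. Ada (7.05) and Adk (3.04) changed places in the order, without overlap between them in either group.

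The genes whose levels over the 6 libraries ran closest to the called genes with the smallest p in each direction were sought among the other 11657 tested genes, by the root-mean-square difference of centred log2(CPM + 0.5) values. For Entpd1 they were Clic4 (difference 0.04, log2 fold change 1.72), Vangl1 (0.09, log2 fold change 3.2, a low gene whose change the added 0.5 shrinks) and Fnip2 (0.10, log2 fold change 1.87). For Adk they were BC065397 (0.05, log2 fold change -0.93), Zfp420 (0.09, log2 fold change -0.81) and Epcam (0.09, log2 fold change -0.99).

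Other genes of adenosine and purine handling were counted by role, from lists chosen with earlier results of these data known. The lists held 63 genes, of which 42 were tested. Of these, 8 were higher, 3 were lower and 31 did not pass, so that 26.2% were called, beside the 18.8% of all tested genes. Their median log2 fold change was 0.19. All KO libraries lay above WT in 16 of the 42 and below in 9, where 22.2% of all tested genes lay above and 18.8% below. None of the 5 tested genes of other cell surface enzymes that act on nucleotides or NAD was called. Neither Adora1 nor Adora3 had enough counts to be tested.

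Of the 4 tested nucleoside transporters other than Slc29a1, Slc28a2 was called. It encodes CNT2, which carries purine nucleosides into the cell with sodium. It had 190, 196 and 171 CPM in the WT libraries and 106, 109 and 97.9 CPM in the KO libraries. The groups lay far apart, and the log2 fold change was -0.83 ± 0.09 (SE, FDR 0.00202). Slc28a2 was called in all 18 alternatives. The other tested transporters of the list were not called and went in both directions. Their log2 fold changes were 0.26 for Slc29a2 (FDR 0.587), 0.25 for Slc29a3 (FDR 0.301) and -0.12 for Slc29a4 (FDR 0.850).

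Among the intracellular 5′-nucleotidases and the AMP deaminases, Nt5m and Ampd3 were called. Nt5m, for a mitochondrial nucleotidase, was the only gene called of 5 tested intracellular 5′-nucleotidases, and rose from 9.61, 8.90 and 9.13 to 17.2, 16.8 and 13.9 CPM (log2 fold change 0.79 ± 0.15, SE, FDR 0.0125), and it was lost without WT replicate 2 (FDR 0.0676) or WT replicate 3 (FDR 0.0596). Nt5c2 had all KO libraries above WT (means 34.7 and 48.9 CPM, log2 fold change 0.50, FDR 0.0643). Ampd3, for an enzyme that turns AMP into IMP, fell from 41.0, 39.1 and 39.3 to 31.6, 25.1 and 30.2 CPM (log2 fold change -0.46 ± 0.11, SE, FDR 0.0333). That call was lost without WT replicates 1, 2 or 3 (FDR 0.0893, 0.112 and 0.104) or KO replicate 3 (FDR 0.0596).

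Among the 6 tested genes of purine breakdown and salvage, Gda was called. It encodes guanine deaminase, which turns guanine into xanthine. It had 4, 2 and 3 counts in the WT libraries and 1548, 356 and 570 in the KO libraries. On summed counts scaled for library size the KO level was 352-fold that of WT. The 95% counting interval of 185 to 771 covers counting error only. Without KO replicate 1 the KO level was 217-fold that of WT (114 to 476). Whichever KO library was left out, Gda no longer passed the filter on low counts. The gene passed the filter through the KO libraries alone, so its call (FDR 0.000880) follows in part from the filter, and it is given as a description. Without it, 7 of 41 tested pathway genes were called higher and 3 lower (24.4% in all). Xdh, for the xanthine oxidoreductase that follows, had 68.7, 79.3 and 65.4 CPM in WT and 78.7, 29.8 and 30.0 CPM in KO, and of the 18 alternatives only that without KO replicate 1 called it (lower, log2 fold change -1.27, FDR 0.000714, against -0.62, FDR 0.275).

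A like split between the KO libraries was seen in Cd38, for an enzyme that consumes NAD outside the cell. It had 30.5, 30.9 and 27.9 CPM in WT and 65.4, 12 and 17.5 CPM in KO. Its log2 fold change was 0.09 (FDR 0.924) with all libraries and -1.03 (FDR 0.00741) without KO replicate 1, again the only call in 18 alternatives. With Xdh it brought the genes called lower from 3 to 5. Bst1, P2ry6, P2ry12 and P2ry13, which did not pass the filter, stood at 7.55, 10.6, 8.16 and 34.7 CPM in KO replicate 1 and under 1 CPM in each other library, and the part of other cells in these levels was not tested.

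Of the 5 tested genes of ATP release and P2 receptors, P2rx7 fell and Panx1 and P2ry14 rose. P2rx7, for an ATP-gated channel, had 367, 293 and 338 CPM in the WT libraries and 204, 154 and 201 CPM in the KO libraries. All KO libraries lay below all WT libraries (log2 fold change -0.84 ± 0.14, SE, FDR 0.00877), and the gene was called in all 18 alternatives. Panx1, for a channel that releases ATP, had 67.1, 68.8 and 72.1 CPM in WT and 96.4, 83.8 and 98.4 CPM in KO (log2 fold change 0.42, FDR 0.0212), and was lost without WT replicates 1, 2 or 3 (FDR 0.0893, 0.0965 and 0.0716) or KO replicate 3 (FDR 0.066). P2ry14, for a receptor of UDP-glucose, had 2.16, 1.23 and 1.60 CPM in WT and 15.8, 3.18 and 5 CPM in KO (log2 fold change 2.28, FDR 0.0406). Its log2 fold change dropped to 1.30 without KO replicate 1, and its call was lost without WT replicates 1, 2 or 3 (FDR 0.095, 0.152 and 0.128) or KO replicate 3 (FDR 0.0535).

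Gnaq was the only gene called of 5 tested G alpha subunits, and was higher in KO. It had 54.9, 54.6 and 54.5 CPM in the WT libraries and 79.6, 86.0 and 106 CPM in the KO libraries (log2 fold change 0.72 ± 0.12, SE, FDR 0.00753), without overlap and with a call in all 18 alternatives. Gnas, for the stimulatory subunit that the A2a and A2b receptors couple to, also had all KO libraries above WT but was not called (log2 fold change 0.19, 95% interval -0.07 to 0.44, FDR 0.266), and whether Gnaq differed from the other subunits was not tested.

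The remaining calls were Dpp8 and Prep among 6 tested peptidases listed beside CD26, which are not a single protein family. Ahcyl2 was called among 3 genes related to the hydrolase that frees adenosine from S-adenosylhomocysteine. Their log2 fold changes were 0.47 for Dpp8 (FDR 0.0187), 0.56 for Prep (FDR 0.0149) and 0.61 for Ahcyl2 (FDR 0.0435). Dpp8 was lost without WT replicates 1, 2 or 3 (FDR 0.0637, 0.066 and 0.0802) or KO replicate 3 (FDR 0.0549). Prep was lost without WT replicates 2 or 3 (FDR 0.0736 and 0.0655) or KO replicate 3 (FDR 0.0501). Ahcyl2 was lost in each fit without 1 library but that without KO replicate 1, at FDRs of 0.145, 0.115 and 0.134 without WT replicates 1, 2 and 3 and of 0.0737 and 0.111 without KO replicates 2 and 3. Ahcy itself had a log2 fold change of 0.52 (95% interval 0.12 to 0.91, FDR 0.0706).

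**Figure D5:**
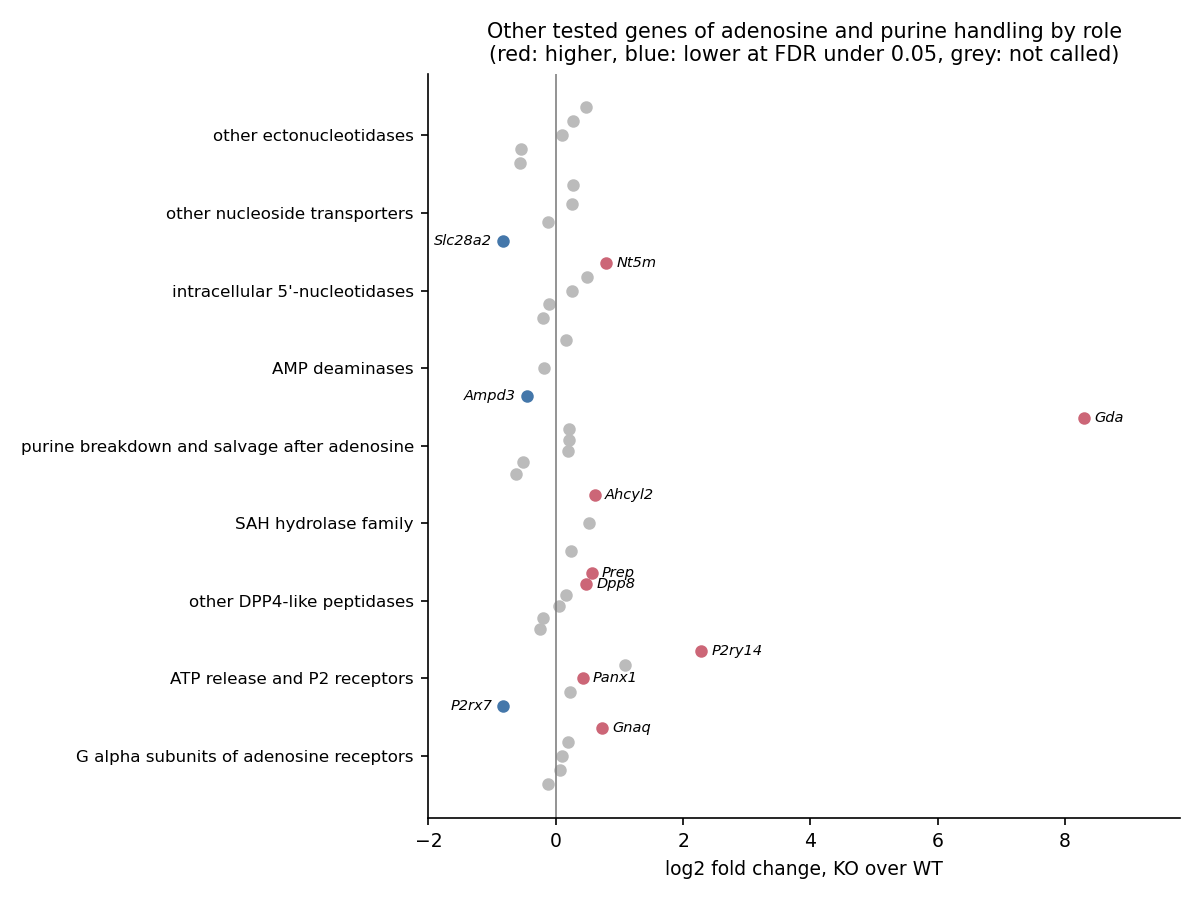
Log2 fold changes of KO over WT (horizontal axis) for the 42 other tested genes of adenosine and purine handling, 1 point per gene, arranged by role, with called genes named (red higher, blue lower) and others in grey. Slc28a2, Ampd3 and P2rx7 lie below 0 and the 8 genes called higher above it, with Gda far to the right at 8.29, a fitted value against WT libraries with 2 to 4 counts. The role labelled other ectonucleotidases also holds enzymes that act on NAD, and that labelled other DPP4-like peptidases is not a single protein family.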

How the data were processed

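RNA-seq was done on 6 libraries of sorted splenic Treg cells, 3 WT and 3 KO, grouped by the deposited sample titles. The authors aligned single-end reads to mm10 with HISAT and counted them per gene with featureCounts, ignoring strand. The deposited values are raw counts per gene and library, not normalized by the authors. CASAVA, HISAT and edgeR are named in the submitters' processing notes, and their versions are not given in the sources used here. The depth of each library sets a floor of 3 counts, and intervals on counts cover counting error only.

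Here, genes were kept if 3 or more libraries exceeded 1 CPM (11658 of 24421). Counts were scaled by TMM and tested with edgeR's quasi-likelihood test (edgeR 4.0.16, R 4.3.3) on all 6 libraries, with no covariate. FDRs are Benjamini-Hochberg values over all tested genes, and a call is an FDR under 0.05. CPM values use TMM-scaled library sizes. The procedure was checked on simulated counts. The alternatives were RLE, upper-quartile and library-size scaling, the likelihood ratio and exact tests, DESeq2 1.42.0, no filter, filterByExpr, robust estimation, the newer quasi-dispersion, a replicate block, an FDR of 0.01, and each library left out in turn.

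Exon lengths, gene positions and 3′ UTRs were taken from GENCODE vM21 (GRCm38), the build that mm10 names, and mature miR-142 from RefSeq. The 8 genes and the pathway and marker lists were chosen with earlier results of these data known. All 8 are named, as are the called genes of the pathway lists and the 3 genes most like the called gene with the smallest p in each direction. Cd38, Xdh, Bst1, P2ry6, P2ry12, P2ry13, Nt5c2, Gnas, Ahcy, Slc29a2, Slc29a3, Slc29a4 and the single markers were added after their values were seen. Libraries of each group differed by more than counting noise. The labels do not say whether animals were pooled, so p-values measure the spread between these libraries.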

Additional observations from a re-analysis of the deposited data

How the results depend on the processing

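The direction of each tested adenosine gene except Nt5e held under all 18 alternatives. Nt5e turned to -0.0332 with library size alone and to -0.0302 with upper-quartile factors, and ranged from -0.14 to 0.201 with a library left out, negative without WT replicate 1 or KO replicate 2. Of the adenosine genes, 3 were called higher and 1 lower. DESeq2 called 2 lower, an FDR of 0.01 left 1 higher and 0 lower, and leaving out a library gave 1 to 2 higher and 0 to 1 lower. Of the other pathway genes, 8 were called higher and 3 lower. An FDR of 0.01 left 2 higher, and leaving out a library gave 2 to 7 higher and 2 to 5 lower. Fewer libraries leave fewer degrees of freedom.

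Over all genes, 1350 were called higher and 847 lower, but 1064 and 1201 with library size alone, 1086 and 1209 with upper-quartile factors, 1665 and 1198 with DESeq2, 490 and 196 at an FDR of 0.01, and 483 to 1403 and 208 to 937 with a library left out. The replicate block called 1061 higher and 545 lower, and under it Dpp4 (0.353, FDR 0.0724) and Ampd3 (-0.465, FDR 0.0633) were no longer called. The replicate numbers share no stated source, and same-numbered libraries did not deviate together (correlations 0.0731, -0.0124 and -0.188), so they were not taken as pairs. Adora2b did not pass the filter, and with no filter it was not called (FDR 0.125, unadjusted p = 0.0269).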
